A study of Mus musculus with 2 samples.

Results

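The regions described here are 355 stretches of Brg1-bound chromatin in mouse medulloblastoma. They lay at an end of a long non-coding RNA (lncRNA) gene and away from the ends of protein-coding genes. They were taken from the 5727 enriched regions (islands) of 1 Brg1 ChIP-seq library by position alone. An island was taken if it overlapped, or came within 1 kb of, an end of a RefSeq lncRNA gene on mm10 and all of it was over 5 kb from the ends of protein-coding genes. An island away from coding genes in this sense could still lie inside a coding gene, and further starts within a coding gene were not considered. An lncRNA end was within 1 kb of 738 islands, and 383 of these were left out because a coding gene end was within 5 kb. The tumours formed spontaneously in CAG-CreER, Rosa26-SmoM2 mice. These carry a Cre recombinase fused to a modified oestrogen receptor under the broadly active CAG promoter, and an activated form of Smoothened (SmoM2), the membrane protein that passes on the Hedgehog signal, at the Rosa26 locus. Chromatin of dissociated tumour cells was precipitated with the J1 antibody, which the labels list for both Brg1 and Brm, so an island can hold either ATPase. The other library, an input with no antibody, is not analysed here, and the number of tumours behind each library is not given in the sources used here. With 1 ChIP library there were no replicates, so all values below describe this library, intervals cover counting error only, and no test between samples was possible.

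Brg1, encoded by Smarca4, is the ATPase of the BAF (SWI/SNF) complex, which moves nucleosomes and keeps promoters and enhancers open. lncRNA genes give mostly spliced transcripts without a long reading frame. Some act as RNA, as Xist does in silencing an X chromosome, some are precursors of microRNAs or small nucleolar RNAs, and many have no known role. Many lncRNA starts lie in enhancers of neighbouring coding genes, so an island at such a start can belong to the lncRNA, to a coding gene further away, or to both. Shh-type medulloblastoma is held to arise from granule neuron progenitors of the cerebellum. Among microRNAs, miR-9 and miR-124 are known from neural progenitors and neurons, and the cluster from miR-17 to miR-92a is known for promoting growth.

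The mature microRNAs of the lncRNA hosts with an island are shown because the microRNAs are the products of these genes whose sequence is known to matter. Sequences are from RefSeq on GRCm38.p6, written 5′ to 3′, with the seed (bases 2 to 8), the part that pairs with targets, in capitals. miR-9 is made from Mir9-2 in C130071C03Rik and from Mir9-3 in Mir9-3hg, and the mature forms from both are identical. miR-9-5p is at chr13:83738821-83738843 and chr7:79505279-79505301, both on the plus strand.
miR-9-5p: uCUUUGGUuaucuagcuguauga
miR-9-3p: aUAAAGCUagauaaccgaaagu
The cluster beside the island at Mir17hg (chr14:115043684-115044496 from the first to the last mature form shown, plus strand) holds miR-17-5p and miR-20a-5p with the seed AAAGUGC, miR-19a-3p and miR-19b-3p with the seed GUGCAAA, and the single seeds of miR-18a-5p and miR-92a-3p.
miR-17-5p: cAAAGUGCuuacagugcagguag
miR-20a-5p: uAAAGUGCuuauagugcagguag
miR-18a-5p: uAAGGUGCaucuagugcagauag
miR-19a-3p: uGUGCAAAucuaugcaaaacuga
miR-19b-3p: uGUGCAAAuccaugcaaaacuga
miR-92a-3p: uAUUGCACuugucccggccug
Dleu2 holds miR-15a and miR-16-1 (miR-15a-5p at chr14:61632075-61632096, miR-16-5p at chr14:61631936-61631957, minus strand), which share the seed AGCAGCA. Mir100hg holds miR-125b-1 (miR-125b-5p at chr9:41581940-41581961, plus strand).
miR-15a-5p: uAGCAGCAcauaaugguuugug
miR-16-5p: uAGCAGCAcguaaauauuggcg
miR-125b-5p: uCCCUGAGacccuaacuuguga

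The promoters of 5 lncRNA genes with a start in an island are shown because they span a wide range of base composition, from a CpG-poor to a CpG-rich window. Each window runs from 250 bases before to 50 bases after the annotated start and is 300 bases long, from RefSeq on GRCm38.p6, in the direction of transcription. Capitals mark matches, on either strand, to the TATA box (TATAAA), the CCAAT box (CCAAT), the GC box of Sp and KLF factors (GGGCGG), an E-box of the Neurod and Atoh1 type (CAGCTG), the CRE (TGACGTCA) and the Meis motif (TGACAG), the motifs of the searched set that these windows hold. Capital runs of Gm17750 and Gm15327 merge overlapping matches. Gm17750 (chr13:84064725-84065024, minus strand) has 36.0% G and C and 2 CpG, and its island is the widest of the 355.
Gm17750: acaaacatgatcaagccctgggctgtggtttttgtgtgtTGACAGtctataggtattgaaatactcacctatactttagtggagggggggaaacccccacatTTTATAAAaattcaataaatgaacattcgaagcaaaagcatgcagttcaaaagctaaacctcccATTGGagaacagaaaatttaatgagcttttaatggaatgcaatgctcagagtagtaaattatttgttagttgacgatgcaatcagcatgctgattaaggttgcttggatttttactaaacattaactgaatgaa
Malat1 (chr19:5802623-5802922, minus strand), an abundant nuclear RNA of splicing speckles, has 47.0% G and C and 10 CpG, with a CAGCTG starting at base 42 of the transcript.
Malat1: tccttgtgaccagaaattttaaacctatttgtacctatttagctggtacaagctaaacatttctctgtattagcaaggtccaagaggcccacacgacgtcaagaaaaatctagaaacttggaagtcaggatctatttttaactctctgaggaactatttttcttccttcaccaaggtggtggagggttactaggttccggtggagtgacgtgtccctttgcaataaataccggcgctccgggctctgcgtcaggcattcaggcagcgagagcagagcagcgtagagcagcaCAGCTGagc
Gm15327 (chr13:111808888-111809187, plus strand) lies inside the coding gene Map3k1 and has 84.7% G and C, 61 CpG and 7 GC box matches.
Gm15327: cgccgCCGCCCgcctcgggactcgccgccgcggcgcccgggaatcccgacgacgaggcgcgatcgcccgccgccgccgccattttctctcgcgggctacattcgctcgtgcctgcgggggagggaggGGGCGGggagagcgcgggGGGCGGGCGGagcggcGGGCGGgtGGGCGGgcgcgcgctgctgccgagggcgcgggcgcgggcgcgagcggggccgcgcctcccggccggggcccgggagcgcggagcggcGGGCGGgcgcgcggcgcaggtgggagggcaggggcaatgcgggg
Mir9-3hg (chr7:79499776-79500075, plus strand) has 75% G and C, 35 CpG and a CRE starting at -51.
Mir9-3hg: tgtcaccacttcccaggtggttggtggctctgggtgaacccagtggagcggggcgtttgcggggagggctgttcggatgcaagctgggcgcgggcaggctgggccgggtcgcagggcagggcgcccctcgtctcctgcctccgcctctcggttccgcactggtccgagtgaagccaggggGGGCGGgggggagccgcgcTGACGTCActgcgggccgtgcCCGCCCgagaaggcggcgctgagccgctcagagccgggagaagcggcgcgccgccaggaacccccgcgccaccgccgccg
C130071C03Rik (chr13:83721131-83721430, plus strand), the host of Mir9-2, has 60.7% G and C, 12 CpG, and a CAGCTG at -131.
C130071C03Rik: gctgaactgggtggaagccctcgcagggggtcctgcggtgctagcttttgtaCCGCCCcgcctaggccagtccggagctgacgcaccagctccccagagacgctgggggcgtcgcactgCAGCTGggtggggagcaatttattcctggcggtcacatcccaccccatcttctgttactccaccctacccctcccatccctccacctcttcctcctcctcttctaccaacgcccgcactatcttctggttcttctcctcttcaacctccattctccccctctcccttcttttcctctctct
Positions count the first transcribed base as 1, with no base 0. A match says only that these letters are in the window. Of all 26793 promoters in the table, 36.2% hold the GC box, 38.2% CCAAT, 14.2% TATAAA, 16.2% CAGCTG, 1.87% the CRE and 19% TGACAG.

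The 355 islands held 31052 of the 472238 reads in the list and covered 0.984 of 14.2 Mb. Reads per island are the authors' own count, are not scaled for depth, and library depth is unknown. The median was 74 reads (interquartile range 60 to 95.5, lowest 37, highest 568) and the median width was 2400 bp (interquartile range 1800 to 3200). The other 3012 islands over 5 kb from coding gene ends, called other distal islands below, had medians of 67 reads and 2200 bp. The 1861 islands within 1 kb of a coding gene end had medians of 71 reads and 2400 bp. Most of the difference in reads went with width: reads per 200 bp had medians of 6.29, 6.37 and 6.11 in these 3 sets, and reads relative to the median of islands within 200 bp of the same width were 1.01, 1 and 0.987. Islands at least 4 kb wide made up 14.9% of the lncRNA-end islands (53 islands, Wilson 95% interval 11.6 to 19), 7.2% of other distal islands and 11.0% of coding gene-end islands. A wide island meets a distance rule more easily, so this share is not independent of the rule.

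**Figure D1:**
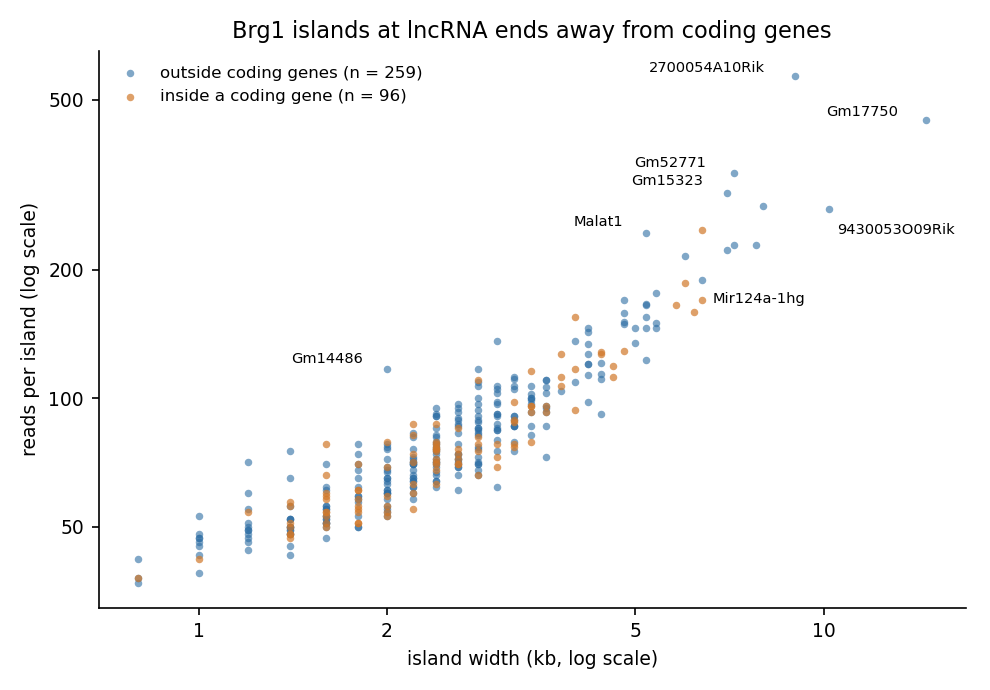
Reads per island against island width, both on log scales, for the 355 islands at lncRNA ends, with 96 inside a coding gene in orange and 259 outside in blue. Reads followed width across nearly all islands, with Gm17750 the widest at 14600 bp and 2700054A10Rik the highest at 568 reads.

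The island with the most reads lay 760 bp inside the start of 2700054A10Rik (chr17:13544335-13553334, 9000 bp). Its 568 reads (exact Poisson 95% interval 522 to 617) gave 12.6 reads per 200 bp, the highest density of the 355. Its nearest coding gene, Tcte2, was 163 kb away. The island at the start of Gm17750 (chr13:84053196-84067795) held 447 reads (407 to 490), but over 14600 bp, so its density of 6.12 was close to the median. Gm52771 (chr5:32723953-32731152) had 337 reads at its far end and a density of 9.36. It lay 5149 bp from Pisd, the phosphatidylserine decarboxylase, and so only just met the 5 kb rule. The start of Gm15323 had 302 reads in 7000 bp and that of Gm41986 had 282 reads in 8000 bp, both outside coding genes.

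The start of 9430053O09Rik held 278 reads over 10200 bp, the second widest island, at a density of 5.45. This gene lies within the extent of Mir99ahg, the host of miR-99a and let-7c, whose own ends had no island within 1 kb. Malat1 had 244 reads (214 to 277) in 5200 bp across its start (chr19:5799401-5804600), a density of 9.38 and 1.69 times the median reads of islands of like width. Gm15327, inside Map3k1, had 248 reads. Gm41011 had 229, Gm31495 228, Gm31147 222 and Gm32360 215, which completes the 12 islands with the most reads. The 5 widest were those of Gm17750, 9430053O09Rik, 2700054A10Rik, Gm41986 (8000 bp) and Gm31495 (7800 bp). Of the 12 lncRNAs, 8 had the island at the start, 1 at the far end and 1 at both, and the strand of the other 2 is not given in the table.

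Few of the lncRNA genes within reach of the rule had an island. Of the 11404 lncRNA genes that the rule could take, because an end lay away from coding genes, 360 (3.16%, Wilson 95% interval 2.85 to 3.49) had such an island. For comparison, 9.81% of protein-coding genes (2121 of 21627) had an island this close to either end. These shares follow unlike rules, because the 5 kb rule left out islands at lncRNA ends near coding gene ends and was not applied to coding genes. Weaker binding that the caller did not report is not in the list, and the genes with no island may still carry Brg1. The lncRNAs with an island were mostly uncharacterised: 255 were gene models named Gm and a number, 73 Rik clones and 8 LOC models. The share with an island was 2.77% of Gm models (2.46 to 3.13), 4.72% of Rik clones (3.77 to 5.90) and 6.67% of genes with other names (14 of 210, 4.01 to 10.9). Genes with a curated (NR) transcript had one in 4.62% (129 of 2791, 3.90 to 5.47) and genes with predicted (XR) transcripts alone in 2.68% (231 of 8613, 2.36 to 3.04). Gene length made little difference, with 2.92% of lncRNA genes up to 2 kb long and 3.21% of those over 50 kb.

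**Figure D2:**
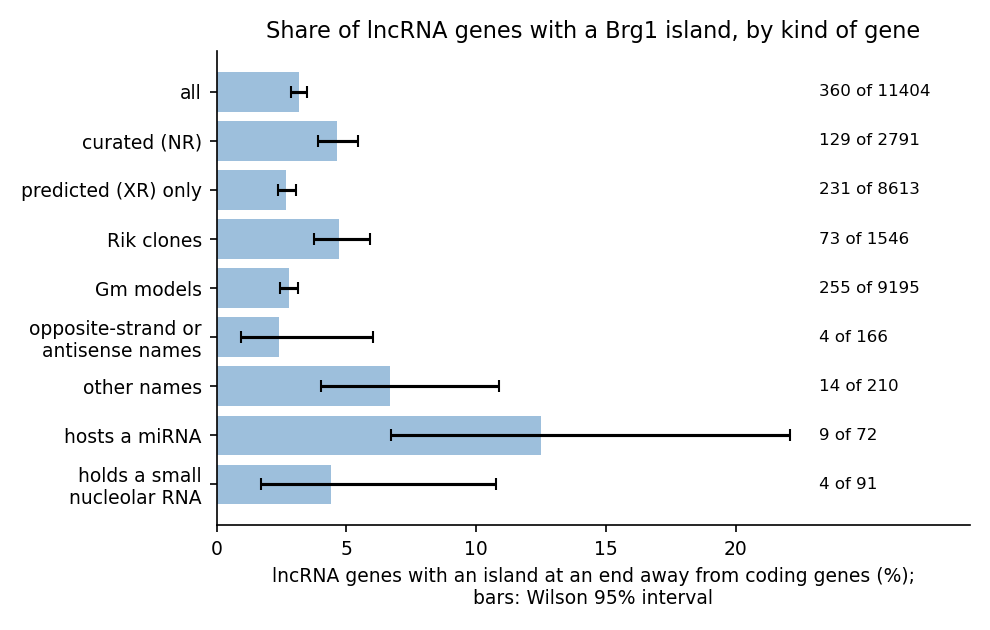
Share of lncRNA genes with an island at an end away from coding genes, in percent, for all 11404 genes the rule could take and by kind of gene. Black bars are Wilson 95% intervals and the numbers are genes with an island of all genes of that kind. Of the kinds drawn, hosts of a miRNA stand highest at 12.5%, with a wide interval from 9 genes.

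Hosts of microRNAs had a larger share with an island than other lncRNA genes in this list. A host holds a microRNA gene within its extent that is not known to be on the opposite strand. An island was at an end of 9 of 72 hosts (12.5%, 6.72 to 22.1), against 351 of 11332 lncRNA genes without one (3.10%, 2.79 to 3.43). The 9 are few, and the intervals treat genes as independent. Mir124a-1hg had islands of 189 reads (163 to 218) and 69 reads, and the gene of miR-124, Mir124a-1, lay inside the first of these. The other miR-124 genes, Mir124a-2 and Mir124a-3, had their nearest islands 254 and 293 kb away.

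Of the 3 genes of miR-9, which promotes neuronal differentiation, Mir9-1 overlapped an island and Mir9-2 and Mir9-3 lay within 3150 bp of one. The share of all microRNA genes this near to an island is not given here, so this is a description. At Mir9-3hg the start had 73 reads (chr7:79499315-79502114) and the far end 93 reads, and Mir9-3 was 3150 bp from the first. C130071C03Rik likewise had an island at each end, with 69 and 72 reads, and Mir9-2 was 1111 bp from the second. Mir9-1 overlapped an island of 64 reads that is not among the 355. The sequence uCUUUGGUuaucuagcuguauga shown above is that of Mir9-2 and Mir9-3, each with an island within 3150 bp.

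The island at Mir17hg (chr14:115040979-115043578, 74 reads, 58.1 to 92.9 by counting) ended 93 bp before the Mir17 hairpin and 849 bp before Mir92-1. RefSeq starts Mir17hg 812 bp beyond the island, within the cluster, so the island precedes the whole cluster although the annotated gene holds Mir92-1 alone. Dleu2 had 77 reads across its start, with Mir15a 15054 bp from the nearest island. Mir100hg had 71 reads across its start, and Mir125b-1 lay 1009 bp from another island of 65 reads. E130102H24Rik, host of Mir101a, had 87 reads across its start, in an island shared with 0610043K17Rik. Mirg, of the imprinted Dlk1 to Dio3 region, had 61 reads at its far end, 231 bp from Mir3072. Carmn, host of Mir143 and Mir145a, which are best known from smooth muscle, had 86 reads.

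Of lncRNA genes that hold a small nucleolar RNA gene within their extent, 4 of 91 had an island (4.40%, 1.72 to 10.8). This was close to the share of all lncRNA genes. Strand was not checked here, so a held gene need not come from the lncRNA. They were Snhg15 (70 reads across its start), Snhg17 (66 reads across its start), 5730522E02Rik (78 reads) and 9330117O12Rik (76 reads).

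Of 63 listed lncRNAs of known function or neural expression, 57 distinct genes were matched as lncRNA genes. Dlx1as, Emx2os, Tsix and Zfhx2os were matched as antisense RNA genes and are not counted. An island away from coding genes was at 12 of them, 7 had one within 1 kb of an end only where a coding gene end was near, and 38 had none within 1 kb of an end. Of all lncRNA genes that the rule could take, 360 of 11404 (3.16%) had an island away from coding genes. The list was chosen with earlier results of these data known, so the 12 are a description. Malat1 led the 12. Jpx, an activator of Xist, had 87 reads centred 3 bp from its start, and Xist had 60 reads 372 bp inside its start. Trp53cor1, also called lincRNA-p21 and induced by p53, had 78 reads in an island shared with Gm41556. Neat1, the scaffold of paraspeckles and a neighbour of Malat1, was among the 7 with a coding end near, as were Gas5, Snhg1 and Pantr1. Among the 38, Meg3, Miat, Rmst, Kcnq1ot1, H19 and Hotair had no island over the gene. Sox2ot, Pvt1, Mir99ahg, Lncpint, Ftx and 2610307P16Rik had 1 or more inside the gene but none at an end. Other named lncRNAs with an island were Chaserr (83 reads across its start), which restrains its neighbour Chd2, 15.2 kb away, Sox1ot (146 reads), Lexis1 (60), Redrum (82) and Platr14 (49).

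The islands lay at lncRNA starts more often than at far ends, though less so than at coding genes. Strand was known for 265 of the 360 lncRNA genes, and the start was taken as the matching end of the RefSeq gene extent. An island was at the start alone in 155 of these, at the far end alone in 73 and at both ends in 37. Of the 228 with an island at 1 end, 68.0% had it at the start (61.7 to 73.7). Counted over islands, 186 of the 264 at an lncRNA of known strand (70.5%, 64.7 to 75.6) were at a start. Among coding genes with an island within 1 kb of 1 end, 1383 of 1554 (89.0%, 87.3 to 90.5) had it at the start. The 5 kb rule was applied to the lncRNA genes alone. Islands at lncRNA ends near coding gene ends, starts or far ends, were therefore not counted. How far this alters the lncRNA share was not tested. Predicted gene models were not far from curated ones, at 66.2% (58.2 to 73.4) and 71.1% (60.6 to 79.7). lncRNA genes over 10 kb long, of which 5 had islands at both ends, gave 72.1% (63.6 to 79.3). Where the island lay outside coding genes the share was 71.8% (64.7 to 78.0), and inside a coding gene it was 55.6% (42.4 to 68.0, 30 of 54 genes), an interval that includes equal shares of both ends. The difference between inside and outside was not tested.

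**Figure D3:**
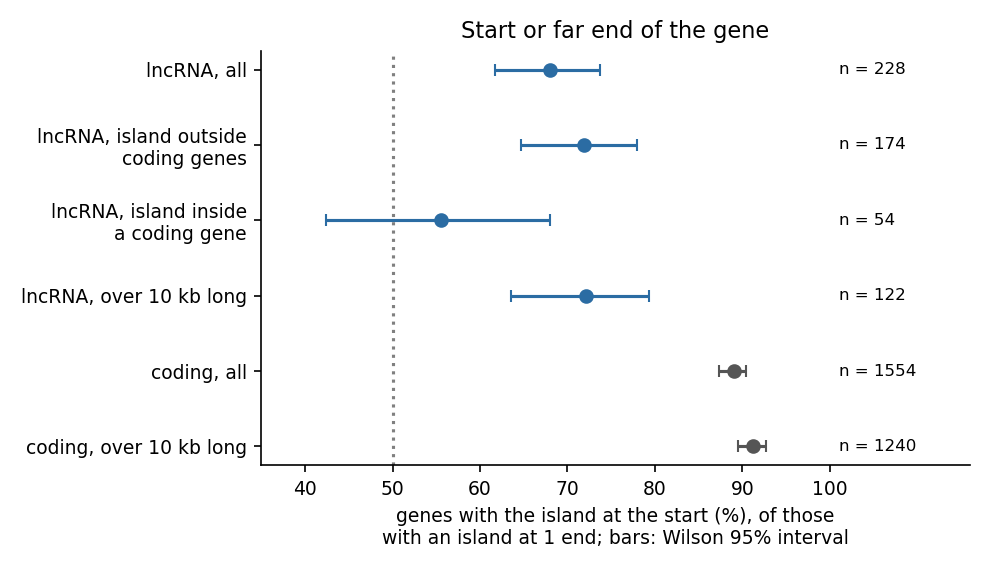
Percent of genes with the island at the start, among genes with an island at 1 end only, for lncRNA genes (blue) and coding genes (grey). Bars are Wilson 95% intervals, n is the number of genes and the dotted line is at equal shares. lncRNA genes were at 68.0% and coding genes at 89.0%, but the 5 kb rule was applied to the lncRNA genes alone.

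Among the islands at starts, most lay over the start, with midpoints slightly into the gene. The rule itself kept each of them within 1 kb of the start, so these positions are not independent of it. Pairs whose island also met the far end of the gene are included. How islands placed by the rule alone would lie was not tested. There were 193 pairs of an island and an lncRNA start, and the start itself was inside the island in 133. The island midpoint was a median of 323 bp downstream of the start (interquartile range -512 to 1024 bp), downstream in 117 pairs and upstream in 76. The midpoint was within 1 kb of the start in 115 pairs.

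**Figure D4:**
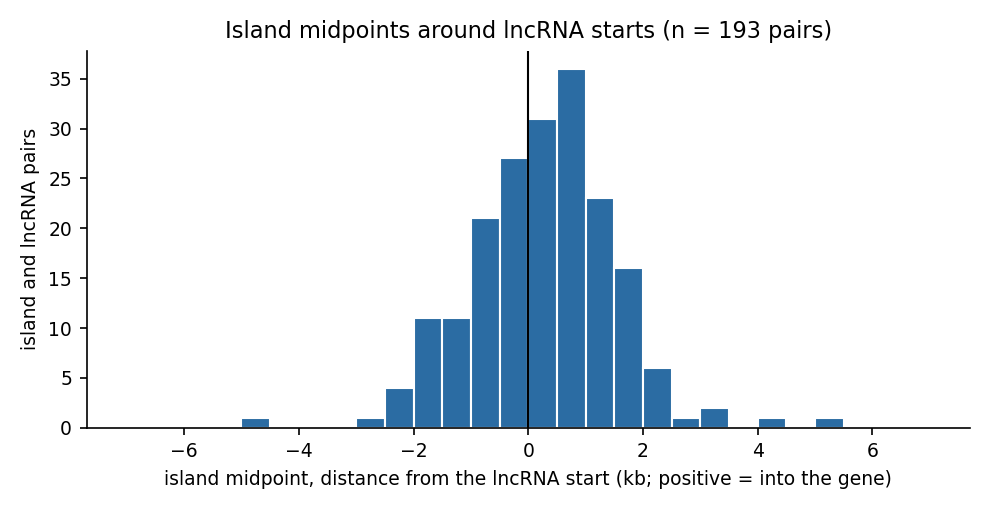
Distance from the lncRNA start to the island midpoint along the direction of transcription, in kb, for 193 pairs, in bins of equal width. The rule kept each island within 1 kb of the start, so these positions are not independent of it. Positive values are into the gene, the vertical line marks the start, and midpoints ran from -4.66 kb at Gm41986 to 5.26 kb at 2700054A10Rik.

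The windows around these starts were less CpG-rich than those of bound coding genes. The start here is that of the promoter table, which is the end of the gene extent for 256 of the 265 genes and lies elsewhere for 9, such as Gm11750. Of the 134 lncRNA promoter windows with this start in one of the islands, 24 (17.9%, 12.3 to 25.3) held 15 or more CpG, with a median of 6 CpG and 51.8% G and C. Coding starts inside an island held 15 or more CpG in 81.5% (1136 of 1394), with medians of 25 CpG and 64.7% G and C. lncRNA starts in no island, from genes within reach of the rule, held them in 7.99% (662 of 8283), with medians of 4 CpG and 47.7%. Such a gene needs only 1 end away from coding gene ends, so some of these unbound starts can lie near a coding gene end. The bound lncRNA windows were therefore between the unbound lncRNA and the bound coding windows, and most resembled the CpG-poor Gm17750 and Malat1 windows shown above more than that of Gm15327. GGGCGG was in 28.4% of them (21.4 to 36.5), 12.8% of lncRNA windows in no island and 72.4% of bound coding windows. TTGGCA, the short motif of nuclear factor I (NFI), was in 23.1% (16.8 to 31.0), 16.6% and 11.7% of these sets and in 14.4% of all promoters. CAGCTG was in 22.4% (16.2 to 30.2), 18% and 13.7%, and the other E-box, CAGATG, in 16.4%, 22.5% and 9.83%. The CRE was in 5 of the 134 (3.73%, 1.60 to 8.44) in 0.821% of lncRNA windows in no island and in 3.73% of bound coding windows. Those 5 were the windows of Mir9-3hg, Snhg15, Gm40545, Gm14321 and Gm32287, the last 2 with starts in 1 shared island. The Gli core GACCACCC, bound by the transcription factors of the Hedgehog pathway, was in 1 of the 134 (0.746%), that of Gm41011, and in 0.788% of all promoters. For the remaining motifs the bound and unbound lncRNA windows were close: 16.4% and 16.6% for TATAAA, 34.3% and 36.2% for CCAAT, 17.2% and 20.8% for TGACAG, 8.96% and 10.1% for the AP-1 motif TGANTCA, and 1.49% and 1.06% for the NRF1 core GCATGCGC. The octamer ATGCAAAT was in 0 of the 134 (Wilson upper bound 2.79%) and in 2.02% of the unbound windows. Both strands were searched in all sets.

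Several lncRNA genes had more than 1 island. An island was at each of 2 places for 12 lncRNA genes, and for 8 of these the islands were at the start and at the far end. By reads, 8 of the 12 were Gm31147 (222 and 68 reads), Mir124a-1hg (189 and 69), 1700108J01Rik (165 and 96), Gm9530 (135 at the start and 59 at the far end), Gm43000 (129 at the start and 58 at the far end), 1700069L16Rik (111 at the start and 65 at the far end), 1700016A09Rik (98 and 63) and Mir9-3hg. The islands were 801 bp apart at 1700108J01Rik and 1700016A09Rik, 1001 bp at Gm31147 and 1201 bp at Mir124a-1hg. Whether such close pairs are single stretches divided by the caller was not tested. In turn 17 islands were shared by more than 1 lncRNA gene. Among these were the island of 1700031P21Rik and Gm35239 (106 reads), that of C630004L07Rik and Gm52686 (96 reads) and that of A730094K22Rik and Gm40545 (71 reads), the last with starts of opposite strand, 66 bp and -4 bp from the island midpoint. Another island lay within 20 kb of 144 of the 355 (40.6%, 35.6 to 45.7), against 32.3% of other distal islands (30.6 to 34.0) and 21.5% of coding gene-end islands.

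The nearest coding gene end was a median of 36.9 kb away (interquartile range 15.3 to 80.4, farthest 690.5 kb), and over 100 kb away for 71 islands (20%). Other distal islands were a median of 43.2 kb away, and all 19936 lncRNA ends over 5 kb from coding ends a median of 40.5 kb. Inside a coding gene lay 96 islands (27%, 22.7 to 31.9). This was well below the 58.0% of other distal islands but close to the 25.7% of all such lncRNA ends. For 87 of the 96 the gene around the island was also the nearest by its end. Clybl and Gse1 each held 3 islands, and Nfia, Cacna2d1, Igsf21 and Ncald 2 each. The 3 inside Gse1 had Gins2, a DNA replication gene, as the nearest coding end. The 355 islands had 309 distinct nearest coding genes, of which 39 had more than 1 island and 6 had 3 or more: Mef2c with 4, and Map3k1, Clybl, Gins2, Nfib and Zfp608 with 3 each.

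Transcription factor genes were the nearest coding gene of 32 islands (9.01%, 6.46 to 12.4, 21 genes), against 8.13% of other distal islands, 6.35% of all lncRNA ends over 5 kb from coding ends and 4.67% of coding gene-end islands. The share near that of other distal islands is not particular to lncRNA ends. The list held 430 genes of families such as Sox, Nfi, Zic, Pou, Mef2, Klf and Fox. By reads these were led by Tcf4, a bHLH partner factor (Gm31147, 222 reads, 212 kb away), Mef2c, a MADS-box factor of neurons (Gm52045, 176 reads, 201 kb) and Nfia (Gm38709, 159 reads, inside the gene and 171 kb from its end). Next were Sox1, a factor of neural progenitors (Sox1ot, 146 reads, 6.72 kb), Zic1 (Gm28703, 127 reads, 526 kb), Pou3f3 (Gm46091, 121 reads, 7.21 kb) and Pou3f2 (Gm42262, 110 reads, 345 kb). Over such distances the nearest gene is a description of position, not an assignment.

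Genes of the granule neuron lineage were nearest to 12 islands (3.38%, 1.94 to 5.81, 8 genes), against 2.39% of other distal islands (1.90 to 3) and 0.913% of all lncRNA ends. Of the 50 genes on that list, 23 (46%) were the nearest gene of an island at a coding gene end, as were 1811 of all 21627 coding genes (8.37%). The list was chosen with results of these data known, so this is a description. RNA was not measured, so no marker levels could be checked. Besides Nfia, whose second island was at Gm19417 (75 reads), and Zic1, a factor of granule neuron progenitors, the genes were Nfib, Boc, Mycn, Meis1, Rbfox3 and Sema6a. Nfib, a nuclear factor I gene of granule neuron maturation, had Gm11267 (105 reads, 80.3 kb), Gm46886 (73 reads, 351 kb) and Gm42305 (51 reads, 97.5 kb). A 71-read island lay 6.30 kb from Zic1 at A730094K22Rik and Gm40545 (chr9:91350563-91351762, 1200 bp, 11.8 reads per 200 bp). Meis1 had Gm31674 (84 reads, 132 kb), Rbfox3, which encodes the neuronal marker NeuN, Gm11750 (72 reads, inside the gene) and Sema6a, a guidance gene, Gm5095 (65 reads, 165 kb). Nfix, the other NFI gene of this kind, held an island at G430095P16Rik (170 reads) whose nearest coding end was that of Lyl1, 22.0 kb away.

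The Hedgehog pathway is activated by SmoM2. A gene of this pathway was nearest to 2 islands (0.563%, 0.155 to 2.03), against 0.697% of other distal islands and 0.436% of all lncRNA ends. One was Gm30064, inside Boc, which encodes a Hedgehog co-receptor, with 107 reads (87.7 to 129) across the lncRNA start and 25.6 kb from an end of Boc (chr16:44529488-44533287). The other was Gm35104, with 86 reads (68.8 to 106), 167 kb from Mycn, a target of the pathway that drives granule neuron progenitor division. Gli1, Gli2 and Ptch1 were the nearest gene of none of the 355. Adhesion, guidance and channel genes were nearest to 10 islands (2.82%, 1.54 to 5.11), below the 4.98% of other distal islands (4.26 to 5.82) and the 4.31% of all lncRNA ends. They were led by Gm43000 in Cacna2d1, a calcium channel subunit gene (129 reads), Gm29967 near Kcng2, a potassium channel gene (105 reads), Gm40874 in Cdhr3 (77 reads) and Gm52248 in Robo1, the receptor of Slit guidance cues (69 reads), followed by Gm31188 near Unc5a, a netrin receptor gene (67 reads), Gm5095 near Sema6a, and Gm10280 near Cntnap4 (64 reads).

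Mef2c was the nearest coding gene of more of these islands than any other, and 5 lay between it and Tmem161b. These 555 kb of chromosome 13 hold no coding gene and 6 lncRNA genes, and 4 of the 6 had an island at an end. Of all lncRNA genes that the rule could take, 360 of 11404 (3.16%) had one. Over the whole list, the rule took 355 of 5727 islands. The stretch was chosen after its values were seen, so its counts are a description. Of 10 islands in the stretch, 5 were at lncRNA ends. They held 88 reads (70.6 to 108) at Gm52046, 69 reads at the neighbouring starts of Gm52046 and C130071C03Rik, 72 reads at the far end of C130071C03Rik, 176 reads (151 to 204) at Gm52045 and 447 at Gm17750. The other 5 held 52 to 132 reads. The island at Gm17750, 386 kb from Mef2c and 155 kb from Tmem161b, therefore held more than the other 4 at lncRNA ends together. Gm41011, with 229 reads, lay on the far side of Tmem161b, 47.0 kb from it.

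**Figure D5:**
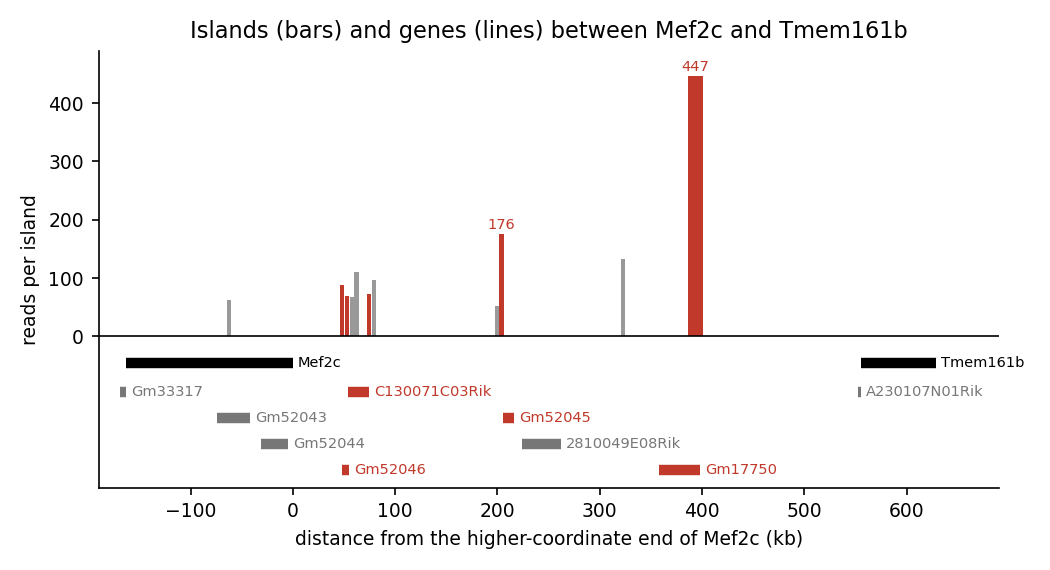
Reads per island (bars, drawn to scale but at least 4 kb wide) and gene extents (lines) around the stretch between Mef2c and Tmem161b, in kb from the higher-coordinate end of Mef2c. Islands at lncRNA ends and their lncRNA genes are red, other islands and lncRNA genes grey and coding genes black. Gm17750 carried 447 reads and Gm52045 176, and the Mir9-2 host C130071C03Rik lies nearest to Mef2c with Gm52046.

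Another group lay at Map3k1, which encodes a MAP kinase kinase kinase. Gm15327, inside the gene and 7.08 kb from its end, had 248 reads, Gm15326 had 98 reads 53.7 kb away and Gm15323 had 302 reads 178 kb away. Near Clybl, 1700108J01Rik had 165 and 96 reads and Gm5089 had 96 reads, all 3 inside Clybl.

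At the limits of the rule, the islands just over 5 kb from a coding end were those of Gm34880 (5028 bp from Asic1, 70 reads), Gm35618 (5110 bp from Ube2ql1, 56 reads) and Gm52771 (5149 bp, 337 reads). Those just within were at Gm15952 (4994 bp from Dcun1d1, 54 reads), Gm5089 (4982 bp from Zic5, 156 reads) and Gm17552 (4877 bp from Carns1, 40 reads). The lncRNA ends just within 1 kb of an island were those of Gm7854 (993 bp, 54 reads), Gm35521 (975 bp, 51 reads) and 1700016A09Rik (975 bp, 63 reads), and those just over were 2310016G11Rik (1005 bp, 52 reads), Gm52391 (1007 bp, 72 reads) and Gm34679 (1008 bp, 79 reads). Of the 355, 241 lay across an lncRNA end and 114 beside one.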

How the data were processed

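Brg1 ChIP-seq was done on SmoM2 medulloblastoma, with 1 ChIP and 1 input library. Tools named in the submitters' processing notes are SICER 1.1, Bowtie 0.12.7 and Picard 1.127. The same notes name mm9 beside mm10, with no role or order. The deposited list of the ChIP library has no column names and pairs each island's position with a whole number. The number was taken as the count of reads in the island, as made by the authors, because it is whole and rises with width. It is not scaled for depth, and for library depth and SICER settings nothing is stated in the sources used here. Island and gene coordinates are 1-based on mm10, and gene extents are those of RefSeq on GRCm38.p6. Whether islands were called on mm9 and moved is not settled.

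Distances are bases between an island and a gene end. Strand came from the RefSeq promoter table, which lacks 95 of the 360 lncRNA genes. Starts are the matching ends of the gene extents, except for promoter windows, which use the start of that table. A microRNA known to be on the opposite strand was not counted as hosted. For small nucleolar RNA genes strand was not checked, and a host is any lncRNA gene that holds one. An lncRNA gene was within reach of the rule if an end lay over 4 kb from coding ends. Motifs were searched as exact letters on both strands. Intervals at 95% are Wilson's for shares and exact Poisson for reads, and they treat genes, islands and reads as independent. With 1 library no test was made. The distance rules were checked on made-up positions with known answers.

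The islands, gene lists and motifs were chosen with earlier results of these data known. Symbols that are not of the named families were taken off the lists, and channel symbols added, after the islands had been seen. Genes are named by fixed rules: the 12 islands with the most reads, the 5 widest, up to 8 lncRNAs with more than 1 island or per nearest-gene list, all microRNA and small nucleolar RNA hosts, the listed known lncRNAs and 3 islands on each side of each limit. A few items that these rules name are not reported here. Nfix, the other named lncRNAs, the groups at Mef2c, Map3k1 and Clybl, and the promoters of Mir9-3hg and C130071C03Rik were chosen after their values were seen. Analyses used Python 3.11.15, pandas 2.3.3, numpy 2.4.6, scipy 1.17.1 and matplotlib 3.10.9. Alternatives were other windows and clearances, midpoints, islands with more reads or width, and fewer gene models.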

Additional observations from a re-analysis of the deposited data

How the results depend on the processing

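Of 81 values under alternative settings, 65 stayed near the reported ones (counts within 1.5 times, shares and medians within their 95% intervals) and 16 moved. Requiring the island midpoint in the window gave 209 islands, 1.87% of lncRNA genes and 19 islands nearest to a transcription factor gene. Keeping the islands whose reads reached the median of the list gave 227 islands, medians of 89 reads, 3000 bp and 6.07 reads per 200 bp, and 2.03% of lncRNA genes. Without gene models named Gm and a number there were 109 islands with a median of 79 reads, 4.75% of lncRNA genes and 9 islands nearest to a transcription factor gene. A window of 500 bp gave 2.75% of lncRNA genes and one of 2 kb 3.78%. The median distance to coding genes was 30.7 kb with a clearance of 2 kb and 42.9 kb with 10 kb. The share inside coding genes and the share of islands at an lncRNA start (70.5%) stayed within their intervals in every alternative run. The share of lncRNA genes with the island at the start was not run under them.

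Leaving out islands above the 99th percentile of reads per 200 bp, a setting chosen after seeing the data, removed 3 of the 355 (2700054A10Rik, Gm14486 and the island of A730094K22Rik and Gm40545) and moved no value past these limits. No island of the 355 exceeded 2 times the median reads of its width, so that setting changed nothing. Few islands share the width of the widest ones, so that comparison says little about them. The unknown library depth limits what can be said of weaker binding, and no input track was used to check single islands.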

Other observations

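Chromosome X gave 2 of the 355 islands and 23 of all 5727. Both were at genes of the X-inactivation centre, Jpx with 87 reads (exact Poisson 95% interval 69.7 to 107) and Xist with 60 reads (45.8 to 77.2), and both had Tsx as the nearest coding gene. Among the 264 lncRNA genes of X within reach of the rule, 0.758% had an island (Wilson 95% interval 0.208 to 2.72). The autosomes ranged from 1.75% on chromosome 3 (0.982 to 3.11) to 5.41% on chromosome 18 (3.57 to 8.13).

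A tRNA gene overlapped 7 of the 355 islands, a microRNA gene 4 and a small nucleolar RNA gene 2. The same counts for the other islands are not given here, so whether these differ from them was not tested. The 4 with a microRNA were those overlapping Mir124a-1 with Mir3078, Mir3089, Mir344g and Mir7687. The hairpin of Mir7b lay 411 bp from an island of 38 reads.

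The island at Gm14486 (chr2:30657681-30659680) held 117 reads in 2000 bp, 1.86 times the median of islands of like width, the highest such ratio of the 355. The islands at Gm14488, which has 66 reads at its start and 56 at its far end, lie on the same chromosome within 100 kb of it.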
